A study of Mus musculus with 4 samples.

Results

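The 3 genes of the Nr4a family (Nr4a1, Nr4a2 and Nr4a3) were followed across the immune cells captured from mouse liver, as 3 of the 32285 genes in the count tables. They were taken by symbol, with earlier results of these data known, and all 3 were detected in both libraries. Hepatic CD4 T cells had been sorted from male mice fed CD, a choline-deficient diet with 60 kcal% fat and 0.1% methionine, for 8 weeks, and were read with a droplet 5′ kit for RNA and T cell receptors. One library came from WT mice and 1 from dKO mice, in which floxed alleles of Nr4a1 and Nr4a2 are recombined by Cre under Cd4 regulatory sequences. Each library pooled 2 mice whose cells cannot be told apart, and age and strain were not given for them in the sources used here. The Cd4 promoter is active from the thymic stage at which both coreceptors are present, so that in such mice the alleles are lost in CD4 and CD8 T cells alike, whereas Nr4a3 is left intact.

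NR4A proteins are orphan nuclear receptors. No ligand made by the body is firmly known for them, they bind DNA at the NBRE element as monomers, and are controlled mainly through the amount made. All 3 genes are immediate-early genes that T cells switch on within hours of T cell receptor engagement. In T cells they are known for limiting activation, for driving features of exhaustion and tolerance and for inducing Foxp3, the defining factor of regulatory T cells (Tregs), and in myeloid cells they respond to inflammatory stimuli.

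The genes lie on different chromosomes of GRCm38 (mm10). In GENCODE M21, Nr4a1 (ENSMUSG00000023034) spans chr15:101254269-101274795 on the plus strand, Nr4a2 (ENSMUSG00000026826) spans chr2:57106830-57124003 on the minus strand, and Nr4a3 (ENSMUSG00000028341) spans chr4:48045153-48086447 on the plus strand. No other annotated gene overlaps any of them on either strand. The bases before each RefSeq start (GRCm38.p6) are shown because the 3 genes share a feature there. Capitals mark the CRE half-site, the core recognised by CREB-family factors, spelled TGACG on the printed strand or CGTCA where it lies on the other strand. Each is read 5′ to 3′ on the gene's own strand. For Nr4a1 these are chr15:101266596-101266845, a window inside an intron of 1 longer transcript. For Nr4a2 they are chr2:57124004-57124253, and for Nr4a3 chr4:48045055-48045152, which stops before the first annotated exon.
Nr4a1: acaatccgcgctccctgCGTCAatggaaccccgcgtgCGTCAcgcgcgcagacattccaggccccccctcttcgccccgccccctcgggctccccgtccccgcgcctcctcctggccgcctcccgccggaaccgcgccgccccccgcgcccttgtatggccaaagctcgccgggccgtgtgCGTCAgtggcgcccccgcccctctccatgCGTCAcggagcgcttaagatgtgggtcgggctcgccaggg
Nr4a2: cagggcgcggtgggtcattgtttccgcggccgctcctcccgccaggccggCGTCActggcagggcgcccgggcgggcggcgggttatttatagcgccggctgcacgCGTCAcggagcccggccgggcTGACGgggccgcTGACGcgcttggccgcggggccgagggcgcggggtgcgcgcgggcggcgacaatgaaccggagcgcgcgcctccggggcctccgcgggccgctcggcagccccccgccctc
Nr4a3: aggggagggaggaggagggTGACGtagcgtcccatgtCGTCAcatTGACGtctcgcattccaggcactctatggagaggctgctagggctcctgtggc

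In the 250 bases before the RefSeq start, Nr4a1, Nr4a2 and Nr4a3 held 4 CRE half-sites each, of which the stretch printed for Nr4a3 shows 3. At least 1 such half-site was present in 17.8% of the 32851 promoter windows of this length in the mouse table and 4 or more in 0.137% (45 windows). The full palindrome TGACGTCA, which was found in 1.55% of windows and counts as 2 overlapping half-sites, was in none of the 3. Neither the AP-1 site TGANTCA (6.75% of windows), the NBRE AAAGGTCA (1.34%) nor the CArG box bound by serum response factor (1.47%) was in these windows on either strand. Egr2, another immediate-early gene, has 5 windows in the table, of which 3 overlapping ones held 2 CRE half-sites each and 4 held 1 CArG box. Neither of the 2 windows of Tnfrsf9 held a CRE half-site. Such matches describe the letters of these windows and do not show binding.

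**Figure D1:**
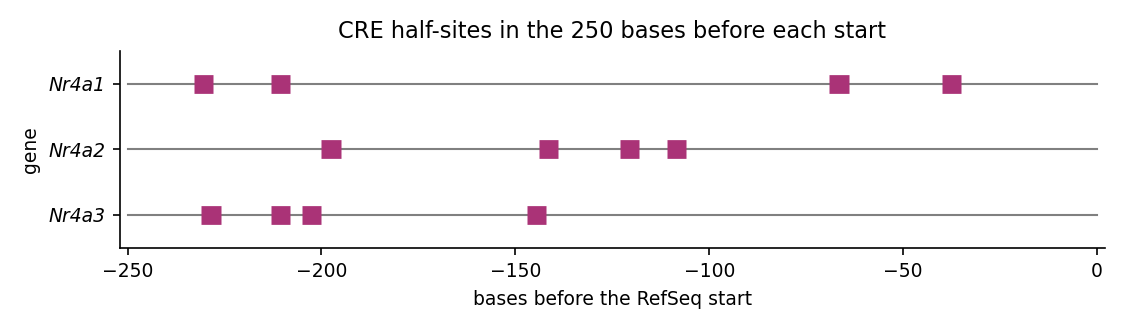
Position of each CRE half-site (blocks, 5 bases) along the 250 bases before the RefSeq start of each gene, in bases from the start on the gene's own strand. All 3 genes hold 4, at 233 to 36 bases before the start in Nr4a1, 200 to 107 in Nr4a2 and 231 to 143 in Nr4a3.

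After filtering, the library labelled WT held 10556 cells and 23437516 UMIs and the library labelled dKO 17462 cells and 37794986 UMIs, with medians of 1679 and 1685 UMIs per cell. There is no replicate of either genotype, so no difference between the genotypes could be tested. Intervals are exact 95% intervals, except that those of differences between shares were combined from the intervals of both shares, and all of them cover counting error only, not differences between mice, preparation or sequencing. Levels are UMIs of a gene scaled to 1000000 UMIs of the summed cells (CPM) and are compared only within a gene. Of the cell barcodes, 242 occurred in both RNA libraries. The targeted genes go against the labels, since Nr4a1 and Nr4a2 were higher in the library labelled dKO, so every direction below is between libraries as labelled, called the WT-labelled and the dKO-labelled library. The tables count a gene as a whole, and transcripts that lack the floxed part cannot be told apart from intact ones.

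Cells were placed in classes by gate genes. The Foxp3 gate (531 cells in the WT-labelled library, 3504 in that labelled dKO), Ifng gate (1857 and 980), Il17a gate (227 and 413) and Mki67 gate (762 and 729) hold cells with at least 1 UMI of that gene, and the Ccr7/Lef1 gate (962 and 474) cells with a UMI of both. They may share cells. The Foxp3 gate held 5.03% of the cells labelled WT and 20.1% of those labelled dKO, and the Ifng gate 17.6% and 5.61%. The Siglech gate (1298 and 3882 cells) and the Lyz2 gate (410 and 533 cells) required 2 UMIs, and those cells were kept out of the T cell gates. Markers of plasmacytoid dendritic cells (Siglech, Bst2, Ly6d, Tcf4 and Irf8) summed to 11332 and 11766 CPM in the Siglech gate, against 162 to 309 CPM in the T cell gates. Siglech, the gate gene itself, gave 2558 and 1991 CPM of the sums in its gate. Of the Siglech-gate cells, 8.71% and 6.31% had a TRB contig, the rearranged T cell receptor beta chain, against 42.2% and 32.0% in the Foxp3 gate. Myeloid markers (Lyz2, Apoe, Csf1r, C1qa and Itgam) summed to 12498 and 15889 CPM in the Lyz2 gate and to 42.1 to 107 CPM in the T cell gates. Of the sums in the Lyz2 gate, 6699.8 and 9238 CPM were Lyz2, the gate gene itself. Lyz2-gate cells also carried T cell transcripts, with a TRB contig in 21.5% and 13.5% of them, T cell markers at 1656 and 1372 CPM (3050.2 and 4663 in the Foxp3 gate) and Treg markers at 443 and 1132 CPM, and the part of such cells in the values of this gate was not tested. The sort was for CD4 T cells, while the Siglech gate, with markers of another cell type, held 12.3% of the cells labelled WT and 22.2% of those labelled dKO. Cd4 itself was at 233 and 360.1 CPM in the Siglech gate, beside 208 and 858 CPM in the Foxp3 gate.

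Nr4a1, also called Nur77 and widely used as a reporter of T cell receptor signalling, was at 725 CPM (714 to 736) over all cells of the WT-labelled library and at 1659 CPM (1646 to 1672) over those of the dKO-labelled library. It was thus 2.29-fold higher in the latter, a log2 ratio of 1.20 (1.17 to 1.22). Among the 3735 genes with at least 50 CPM in either library, 3.69% were at least 2-fold higher and 2.70% at least 2-fold lower in the dKO-labelled library, and Nr4a1 was the only family member past 2-fold, although Nr4a2 passed it, at a log2 ratio of 1.08, without the Siglech and Lyz2 gates. The median log2 ratio of these genes was 0.03.

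The difference in Nr4a1 was seen in every T cell gate. Foxp3-gate cells were at 963 CPM (915 to 1013) in the WT-labelled library and 2235 CPM (2201 to 2269.7) in that labelled dKO. Il17a-gate cells, which hold the type 17 helper cells, gave 1043 CPM (965 to 1125) and 2492 CPM (2399 to 2588). In each library these were the gates with the highest Nr4a1, and their intervals overlapped in the WT-labelled library but not in that labelled dKO. The Foxp3 gate differed in makeup between the libraries, with Treg markers at 3648 and 5478 CPM. Th1 or cytotoxic markers were at 1481 and 4944 CPM, naive-like markers at 634 and 253 CPM and cycling markers at 875 and 529.9 CPM. Of its 531 and 3504 cells, 91 and 277 had a UMI of Mki67 and 69 and 133 a UMI of Ifng. The part of this in the ratios of the Foxp3 gate was not tested. The Ccr7/Lef1 gate, which marks naive-like recirculating cells, had the lowest level of the T cell gates, 447 CPM (423 to 472) and 1232 CPM (1169 to 1298), and the largest log2 ratio of the gates, 1.46 (1.35 to 1.57). The makeup of this gate differed between the libraries, with a UMI of Foxp3 in 39 of 962 and 73 of 474 cells, Treg markers at 537 and 1679.9 CPM, Th1 or cytotoxic markers at 977 and 2399 CPM and cycling markers at 239 and 511 CPM, and the part of this in the ratio was not tested. Cells with the interferon-gamma gene Ifng stood at 882 and 1752 CPM and cells with the proliferation gene Mki67 at 669.9 and 1634 CPM, log2 ratios of 0.99 (0.93 to 1.05) and 1.29 (1.21 to 1.36).

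The Siglech and Lyz2 gates differed from each other. Siglech-gate cells had 603 CPM (579 to 629) of Nr4a1 in the WT-labelled library and 1355 CPM (1335 to 1375) in that labelled dKO. That log2 ratio of 1.17 (1.10 to 1.23) overlaps the one in the Foxp3 gate, 1.21 (1.14 to 1.29). In the Lyz2 gate the levels were 722 CPM (676 to 770.5) and 864 CPM (822 to 906), a log2 ratio of 0.26 (0.14 to 0.38), the lowest of the 7 gates. This value moved with the definition of the gate, to 0.77 (733 and 1251 CPM) with the Siglech and Lyz2 gates at 1 UMI and to 0.13 without mixed cells. Siglech-gate cells supplied 13.3% of all Nr4a1 UMIs in the WT-labelled library and 28.6% in that labelled dKO, beside 16% and 35% of all UMIs. Transcripts of other cell types in the Siglech gate also differed, with Treg markers at 199.5 and 488 CPM and myeloid markers at 101 and 251 CPM. Th1 or cytotoxic markers were at 558 and 852 CPM, while T cell markers were at 791 and 786 CPM and naive-like markers at 756 and 592 CPM. The part of these transcripts in the ratios of the Siglech gate was not tested.

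**Figure D2:**
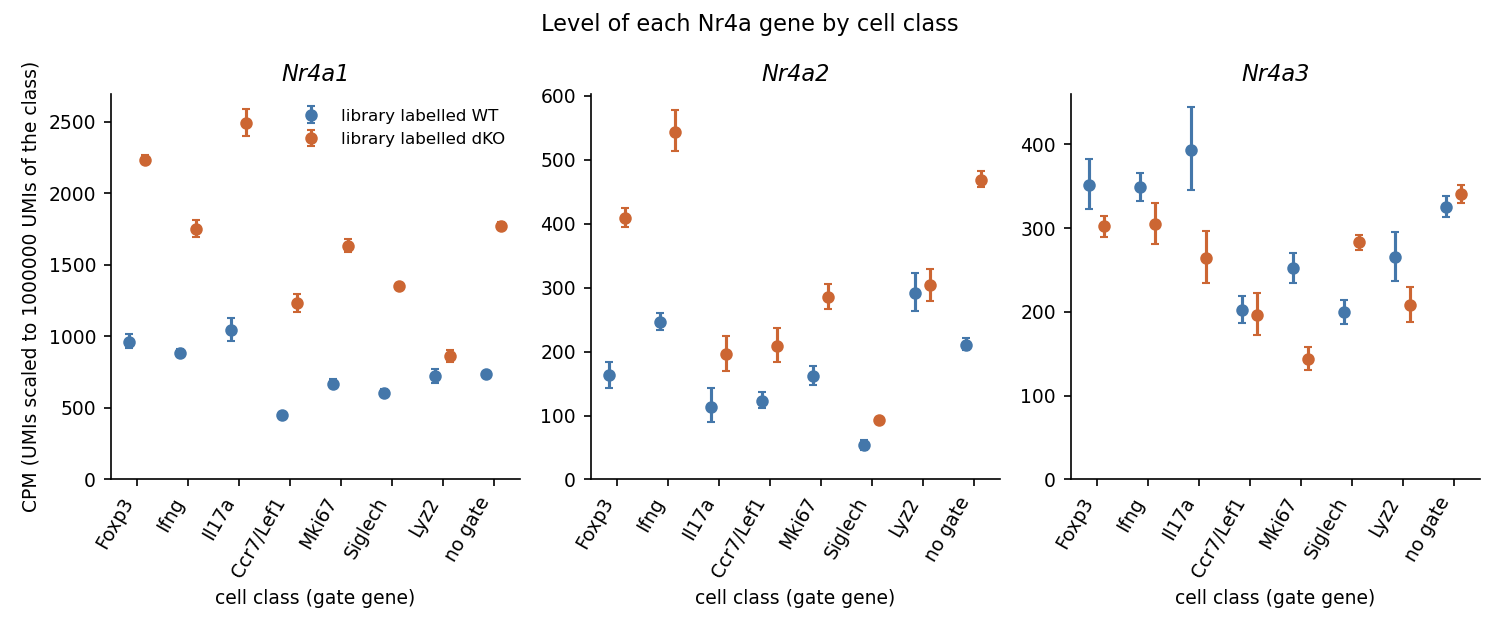
Level in CPM (UMIs scaled to 1000000 UMIs of the class) of each Nr4a gene in the 7 gates and in cells of no gate, for the WT-labelled library (blue) and the dKO-labelled library (orange); points are sums over cells and bars exact 95% Poisson intervals. Nr4a1 spans 447 to 1043 CPM in the gates of the WT-labelled library and 864 to 2492 CPM in those of the dKO-labelled library.

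Nr4a2, also called Nurr1 and known outside the immune system for its part in dopaminergic neurons, had another order of classes. In the WT-labelled library it was highest in the Lyz2 gate at 292 CPM (263 to 323), followed by the Ifng gate at 247 CPM (233 to 261), with 163 CPM (143 to 184) in the Foxp3 gate. The gap between the Lyz2 and Ifng gates there depended on the gates. They were at 255 and 248 CPM with the Siglech and Lyz2 gates at 1 UMI, and at 299 and 287 CPM with cells in 1 gate only. In the dKO-labelled library the Ifng gate came first at 544 CPM (513 to 577), then the Foxp3 gate at 409 CPM (395 to 424) and the Lyz2 gate at 304 CPM (279 to 329). The order of these 3 gates was therefore not the same in the 2 libraries, and of the 3, the Ifng and Foxp3 gates were higher in the dKO-labelled library. The log2 ratio was 1.33 (1.14 to 1.52) in the Foxp3 gate and 1.14 (1.02 to 1.26) in the Ifng gate, but 0.06 (−0.13 to 0.25) in the Lyz2 gate.

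The lowest Nr4a2 of both libraries was in the Siglech gate, at 53.4 CPM (46.2 to 61.3) and 92.7 CPM (87.5 to 98.0). Foxp3-gate cells had a log2 level 1.61 (1.33 to 1.88) above it in the WT-labelled library and 2.14 (2.05 to 2.24) above it in that labelled dKO. The ratios between libraries in the Siglech, Il17a, Ccr7/Lef1 and Mki67 gates lay between 0.76 and 0.82 on the log2 scale. These values moved under the alternatives run, from 0.23 (1 cell per clonotype) to 0.85 in the Il17a gate, from 0.50 (cells in 1 gate only) to 0.87 in the Ccr7/Lef1 gate, from 0.58 to 1.04 in the Mki67 gate and from 0.71 to 1.07 in the Siglech gate. Over all cells Nr4a2 was at 183 CPM (178 to 189) and 306 CPM (300.2 to 311), a log2 ratio of 0.74 (0.69 to 0.79), which is smaller than in the Foxp3 or Ifng gate, and the mix of classes differed between the libraries. Within the Ifng gate, a UMI of Foxp3 was found in 69 of 1857 and 133 of 980 cells, Treg markers were at 806 and 2279 CPM and Th1 or cytotoxic markers at 4491 and 14749 CPM, whose part in its ratio was not tested.

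In the Foxp3 gate, Nr4a1 and Nr4a2 were both more than 2-fold higher in the dKO-labelled library, as were 2.60% of 3737 genes, while 2.86% were 2-fold lower. Nr4a2 passed 2-fold in the Ifng gate, where 2.25% of genes did and Nr4a1 was just short of it (0.99). Both calls lie close to the threshold, since Nr4a2 was at 0.99 with cells in 1 gate only and as a mean of each cell's CPM, and Nr4a1 at 1.21 with 1 cell per clonotype and 1.02 with TMM scaling. Nr4a1 did so in the Il17a gate (1.55% of genes), the Ccr7/Lef1 gate (2.35%), the Mki67 gate (2.27%) and the Siglech gate (0.764%), where Nr4a2 did not, except at 1.03 in the Mki67 gate with cells in 1 gate only and at 1.04 in the Mki67 and 1.07 in the Siglech gate as means of each cell's CPM. No member did in the Lyz2 gate, where 3.48% of genes did. The median log2 ratio of all genes lay between −0.04 and 0.04 in the 7 gates.

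Nr4a3, also called Nor1 and not targeted in these mice, did not follow the other two. Over all cells it was at 291 CPM (284 to 298) in the WT-labelled library and 295 CPM (289 to 300.3) in that labelled dKO, a log2 ratio of 0.02 (−0.03 to 0.06). Among Foxp3-gate cells it was at 352 CPM (323 to 383) and 302 CPM (289.7 to 315), 0.858 times the level labelled WT, with a log2 ratio of −0.22 (−0.36 to −0.08). That ratio was −0.10 as a mean of each cell's CPM and −0.33 in cells with a TRB contig only. The near-equal total hides ratios of both signs.

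Mki67-gate cells had 252 CPM (234 to 270.2) of Nr4a3 in the WT-labelled library and 144 CPM (130.5 to 158) in that labelled dKO, the lowest level of any gate there and a log2 ratio of −0.81 (−0.98 to −0.64). The makeup of this gate differed between the libraries, with a UMI of Foxp3 in 91 of 762 and 277 of 729 cells and Treg markers at 1138 and 2928 CPM. With cells in 1 gate only the log2 ratio was −0.57, and as a mean of each cell's CPM it was −0.53. In the Il17a gate the levels were 393 and 264 CPM, with a log2 ratio of −0.57 (−0.82 to −0.32), which was −0.86 in cells with a TRB contig only. The Ifng gate gave −0.20 (−0.33 to −0.06), which turned to 0.10 with 1 cell per clonotype, the Lyz2 gate −0.35 (−0.56 to −0.13), which was −0.08 with the Siglech and Lyz2 gates at 1 UMI, and the Ccr7/Lef1 gate −0.05 (−0.27 to 0.18), which turned to 0.11 with cells in 1 gate only and 0.09 as a mean of each cell's CPM. Of the 7 gates, the Siglech gate was the one above 0, from 199.5 CPM (185 to 214) in the WT-labelled library, its lowest gate beside the Ccr7/Lef1 gate at 202 CPM with an overlapping interval, to 283 CPM (274 to 292) in that labelled dKO, a log2 ratio of 0.50 (0.39 to 0.62). In the dKO-labelled library the Ifng, Foxp3, Siglech and Il17a gates stood at 305, 302, 283 and 264 CPM with overlapping intervals between neighbours.

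**Figure D3:**
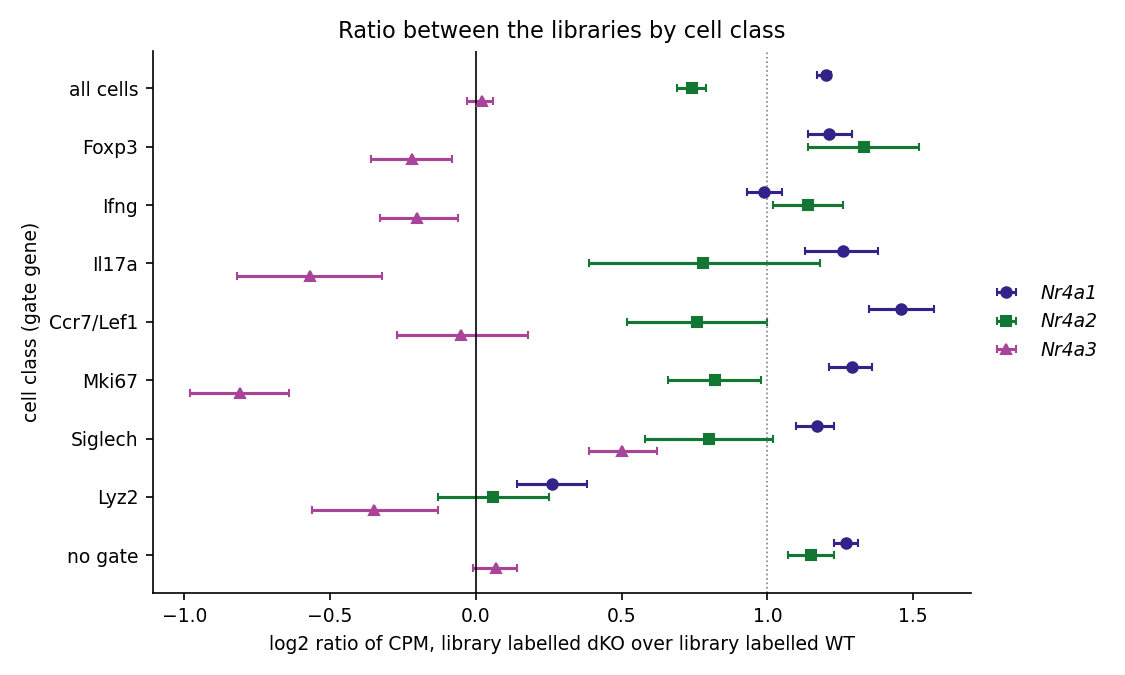
Log2 ratio of CPM between the dKO-labelled library and the WT-labelled library for Nr4a1 (circles), Nr4a2 (squares) and Nr4a3 (triangles) over all cells, the 7 gates and cells of no gate, with exact 95% intervals for counting error; the dotted line marks 2-fold. Nr4a1 lies between 0.99 and 1.46 outside the Lyz2 gate, and Nr4a3 lies above 0 with its interval in the Siglech gate alone (0.50).

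To compare single cells at the same depth, 2000 UMIs were drawn at random from each cell, and cells with fewer were dropped. Of the Foxp3-gate cells this kept 279 and 1319 cells, and dropped 252 and 2185. A UMI of Nr4a1 was then found in 68.8% (63.0 to 74.2) of cells labelled WT and 83.5% (81.4 to 85.5) of cells labelled dKO, against 68.4% and 76.3% before thinning. The counts per cell moved further than the share, with 5 or more Nr4a1 UMIs in 11.8% and 34.9% of cells and none in 31.2% and 16.5%. The Il17a gate had the highest share with 5 or more in the dKO-labelled library, 41.6% against 10.0% in that labelled WT. For the Ccr7/Lef1 gate they were 21.1% and 2.33%, and for the Lyz2 gate 9.92% and 4.98%. A UMI of Nr4a1 was present in 58.3% (53.2 to 63.2) of downsampled Lyz2-gate cells labelled dKO and 58.8% (52.0 to 65.4) of those labelled WT.

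Nr4a2 was detected in 23.3% (18.5 to 28.7) of downsampled Foxp3-gate cells labelled WT and 45.0% (42.2 to 47.7) of those labelled dKO (25.4% and 42.6% before thinning). Detection of Nr4a3 was 40.5% (34.7 to 46.5) and 35.0% (32.4 to 37.6), intervals that overlap (42.4% and 34.9% before thinning). No class here is known to lack these genes, so no share could serve as the level of free RNA, and in the Siglech gate Nr4a2 was still found in 7.01% and 11.5% of thinned cells. All 3 members together were detected in 9.68% of Foxp3-gate cells labelled WT and 18.0% of those labelled dKO, and no member in 19.4% and 9.10%.

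**Figure D4:**
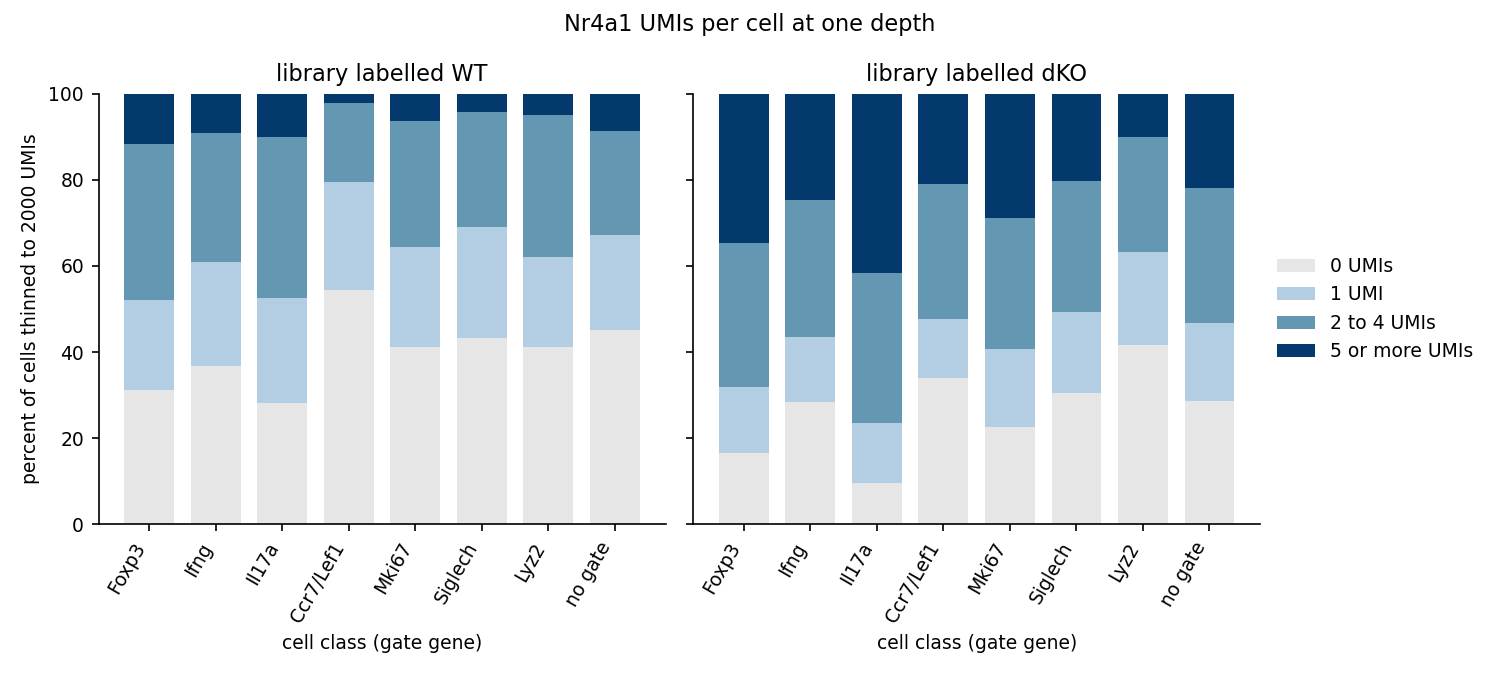
Percent of cells with 0, 1, 2 to 4 and 5 or more UMIs of Nr4a1 after thinning each cell to 2000 UMIs, by class and library; bars add to 100 percent. In the Foxp3 gate the share with 5 or more is 11.8% in the WT-labelled library and 34.9% in the dKO-labelled library.

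Within a class, cells with a UMI of one member were compared with cells without one. Nr4a3 was found more often in cells with Nr4a1 than in cells without it. Among Foxp3-gate cells of the WT-labelled library, it was found in 46.9% (39.7 to 54.2) of cells with Nr4a1 and 26.4% (17.6 to 37.0) of cells without it. In the dKO-labelled library these shares were 38.6% (35.7 to 41.5) and 16.6% (11.9 to 22.2). The difference had an interval above 0 in 5 of the 7 gates of the WT-labelled library and in 6 of the 7 of that labelled dKO, with estimates above 0 in all 7 of each. Among Siglech-gate cells labelled dKO it was 39.1% against 20.6%, a difference of 18.5 points (15.4 to 21.6), beside 22.0 points (15.6 to 27.5) among Foxp3-gate cells of that library.

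The pair Nr4a2 and Nr4a3 had intervals above 0 in the same numbers of gates, 5 and 6 of 7. Nr4a3 was found in 53.8% of Foxp3-gate cells with Nr4a2 and 36.4% of cells without it in the WT-labelled library, and in 43.0% and 28.4% in that labelled dKO. Nr4a1 and Nr4a2 had intervals above 0 in fewer gates, 1 gate of the WT-labelled library and 3 of that labelled dKO. Nr4a2 was found in 24.5% of Foxp3-gate cells with Nr4a1 and 20.7% of cells without it in the WT-labelled library, a difference of 3.79 points (−7.84 to 14.2), and in 46.6% and 36.4% in that labelled dKO, a difference of 10.2 points (2.83 to 17.3). Mki67-gate cells showed differences of −1.17 (−8.42 to 5.82) and −0.0648 points (−10.2 to 9.45) for this pair. Pairs with more detected cells give narrower intervals, and the pairs themselves were not tested against each other.

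Tnfrsf9 encodes the costimulatory receptor 4-1BB, which T cells and Tregs put on their surface after activation. In downsampled Foxp3-gate cells it was detected in 46.2% (40.3 to 52.3) of those labelled WT and 67.6% (65.0 to 70.1) of those labelled dKO, at 471 and 1034 CPM. Siglech-gate cells, in which a T cell receptor was rarely found, were taken as a level that free RNA could give. After the same thinning, Tnfrsf9 was found in 2.10% and 7.65% of them. Before thinning, their medians were 2267 and 3095 UMIs, against 2087 and 1578 in the Foxp3 gate. A TRB contig was found in 8.71% and 6.31% of Siglech-gate cells, and the part of T cells in these shares was not tested. Tnfrsf9 was detected in 96 of 192 Foxp3-gate cells with Nr4a1 and 33 of 87 without it in the WT-labelled library, a difference of 12.1 points (−1.16 to 24.6). In the dKO-labelled library the shares were 69.0% and 60.8%, a difference of 8.14 points (1.02 to 15.5), which was 15.5 points in cells with a TRB contig only. With Nr4a3 the difference in that gate was 16 points (3.54 to 28.0) and 10.8 points (5.43 to 15.9), and with Nr4a2 it was 15.9 points (1.30 to 29.8) and 6.43 points (1.25 to 11.5). Thinned to 1000 UMIs, the differences in the WT-labelled library were 7.31 points with Nr4a3 and 8.23 points with Nr4a2. Without thinning, the differences with Nr4a1 were 19.0 and 13.4 points in the WT-labelled and the dKO-labelled library, and that with Nr4a2 in the latter was 10.3 points.

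Tnfrsf9 was higher in all 7 gates of the dKO-labelled library, by 0.90 to 2.78 on the log2 scale. Cells with Nr4a1 had more Tnfrsf9 than cells without it in 6 of its 7 gates by the interval, against 1 of 7 in the WT-labelled library. The estimate was above 0 in 6 of 7 gates of either library, and the difference between the libraries was not tested. The 6 gates by the interval in the dKO-labelled library include the Siglech gate, at 8.64% with Nr4a1 and 5.38% without it. A UMI of Foxp3 was found in 69 of 1857 Ifng-gate cells labelled WT and 133 of 980 labelled dKO. In the Mki67 gate these were 91 of 762 and 277 of 729, and in the Ccr7/Lef1 gate 39 of 962 and 73 of 474. The part of such cells and of free RNA in the differences was not tested. In Ifng-gate cells the shares with Tnfrsf9 were 41.4% with Nr4a1 and 27.0% without it in the dKO-labelled library, and 13.2% and 11.4% in that labelled WT. The Lyz2 gate, in which T cell transcripts were also found, gave 24.9% and 9.76% in the dKO-labelled library and 6.15% and 4.4% in that labelled WT. Over all its downsampled cells that gate had Tnfrsf9 in 18.6% and 5.43%, and the part of free RNA and of T cells in these shares was not tested.

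Egr2, a transcription factor induced by the T cell receptor and associated with anergy, was sparse in the T cell gates. After thinning it was detected in 1 of 279 Foxp3-gate cells labelled WT and 7 of 1319 labelled dKO, and in 0 of 120 Il17a-gate cells labelled WT, an exact upper bound of 3.03%. All 8 Foxp3-gate cells had Nr4a1 as well, but the difference from cells without Nr4a1 was 0.521 points (−3.66 to 2.87) and 0.635 points (−1.09 to 1.30). Co-detection of Egr2 with Nr4a1 in the Foxp3 gate was therefore not measurable at this depth. In the Ifng gate Egr2 was at 5.32 CPM in the WT-labelled library and 14.7 CPM in that labelled dKO, a log2 ratio of 1.46 (0.66 to 2.27). This ratio came from 27 and 30 UMIs, which lay in 26 of 1857 cells (1.40%) and 15 of 980 cells (1.53%). After thinning Egr2 was found in 0.940% (0.431 to 1.78) and 1.71% (0.630 to 3.68) of Ifng-gate cells, with overlapping intervals. There it was found in 8 of 402 cells with Nr4a3 and 1 of 555 without it in the WT-labelled library, a difference of 1.81 points (0.416 to 3.71), and the difference in that labelled dKO was 2.23 points (−1.01 to 6.98). Egr2 was highest in the Lyz2 gate, at 37.9 and 29.7 CPM and in 6.79% (3.85 to 10.9) and 5.34% (3.34 to 8.05) of thinned cells. In that gate it was found in 6.92% of cells with Nr4a1 and 6.59% of cells without it in the WT-labelled library, and in 4.80% and 6.10% in that labelled dKO, differences of 0.330 points (−7.78 to 7.46) and −1.29 points (−6.68 to 3.50). In the dKO-labelled library it was found in 9.03% of Lyz2-gate cells with Nr4a2 and 3.21% of those without it, a difference of 5.81 points (0.697 to 12.0), against −0.713 points (−7.68 to 7.91) in the WT-labelled library.

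**Figure D5:**
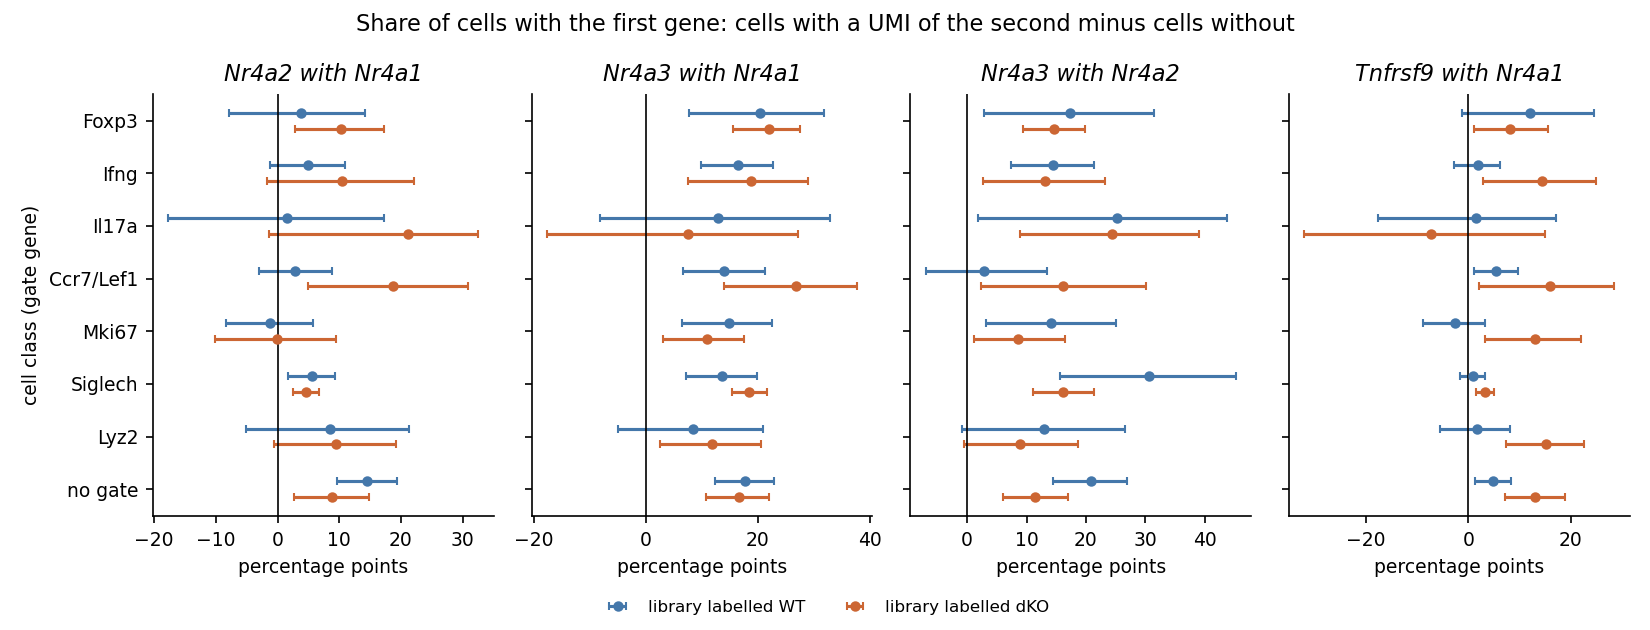
Difference, in percentage points, between the share of cells with a first gene among cells with and without a UMI of a second gene, by class, for the WT-labelled library (blue) and the dKO-labelled library (orange), in cells thinned to 2000 UMIs; bars are 95% intervals for counting error. The intervals for Nr4a3 with Nr4a1 lie above 0 in 5 of 7 gates of the WT-labelled library and 6 of 7 of the dKO-labelled library.

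Of the 10 immediate-early genes listed (Egr1, Egr2, Egr3, Fos, Fosb, Jun, Junb, Ier2, Dusp1 and Btg2), 8 had at least 50 CPM in the Foxp3 gate, where 0 were 2-fold higher and 1 was 2-fold lower in the dKO-labelled library, as were 2.60% and 2.86% of all genes of that gate. Their median log2 ratio was −0.37, beside 0.00 for all genes of that gate. Btg2, which encodes an antiproliferative protein, was at 531 CPM in the WT-labelled library and 226 CPM in that labelled dKO, a log2 ratio of −1.23 (−1.36 to −1.11). Junb, an AP-1 subunit, was at 3745 and 2748 CPM, a log2 ratio of −0.45 (−0.49 to −0.40), while Dusp1, a MAP kinase phosphatase, was at 910.4 and 1093 CPM, 0.26 (0.18 to 0.35).

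The 14 T cell activation genes split in the Foxp3 gate, with 3 more than 2-fold higher (2.60% of all genes of that gate), 1 lower (2.86% of all genes) and a median log2 ratio of −0.15, beside 0.00 for all genes. The 3 were the TNF receptor family members Tnfrsf9, Tnfrsf4 (OX40, 780.3 and 1985 CPM) and Tnfrsf18 (GITR, 472 and 1083 CPM). The 1 was Cd40lg, the helper ligand for CD40, at 261 and 35.9 CPM, a log2 ratio of −2.86 (−3.09 to −2.63). Early activation marker Cd69 was at 373 and 196 CPM, a log2 ratio of −0.93 (−1.07 to −0.79). The retinoid X receptors, with which NR4A1 and NR4A2 can form dimers, were sparse, Rxra at 13.7 and 9.86 CPM and Rxrb at 22.8 and 21.8 CPM in this gate, and Rxrg had no UMI in either library.

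Heat shock genes were measured because tissue digestion and sorting can induce immediate-early genes. None of the 6 was 2-fold higher or lower in the Foxp3 gate, where their median log2 ratio was −0.37, beside 0.00 for all genes of that gate. Within that gate the interval of the difference in detection between cells with and without Nr4a1 lay below 0 for Hspa1a in the WT-labelled library, at −15.9 points (−27.7 to −4.78), and for Hspa1a and Hspa1b in that labelled dKO, at −5.60 points (−11.5 to −0.573) and −9.07 points (−15.6 to −3.17), all named after their values were seen. Hspa1b in the WT-labelled library was at −0.593 points (−12.3 to 10.0). The median of the 6 was −3.69 and −4.98 points. The immediate-early and activation lists had 0 genes whose interval with Nr4a1 lay below 0 in either library. Most of their intervals held 0. Above 0 lay 1 of the 9 immediate-early genes found in 3 or more cells labelled WT and 2 of 10 in those labelled dKO. Of the 14 activation genes, 1 and 4 lay above 0. With Nr4a2 no interval was below 0 and that of Dnajb1 in the dKO-labelled library was above it, at 5.71 points (0.806 to 10.6), and with Nr4a3 0 of 6 were below 0 in the WT-labelled library and 4 of 6 (Hspa1a, Hspa1b, Dnajb1 and Hspa8) in that labelled dKO. The share of all genes of the gate with such an interval was not taken, so these counts have no background beside them. The differences between members were not tested. The part of handling in the levels of the family was not tested.

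The genes most like each member were found by whether both were detected in the same thinned cell, over 1996 cells labelled WT and 1742 labelled dKO with a TRB contig and 7206 genes. These phi coefficients, where 0 is no relation and 1 identity, are descriptions over cells of 1 library each. For Nr4a1 the first was Nfkbia, the inhibitor induced by NF-κB, at 0.24 and 0.19, followed by Nr4a3 (0.17 and 0.16), Nfkbiz, Pim1 and Nfkb1. For Nr4a3 the first was Nr4a1, followed by Nfkbid (0.16 and 0.16), Dennd4a, Gadd45b and Bcl2a1b. For Nr4a2 the first was Nr4a3 (0.13 and 0.12), followed by Samsn1, the chemokine Ccl5 (0.10 and 0.17), the cytotoxic granule gene Nkg7 (0.10 and 0.15) and the integrin Itgav. Against all 7206 genes, whose 95th percentile was 0.05 or 0.06, Nr4a2 came only 97th for Nr4a1, at 0.07 and 0.06, and Tnfrsf9 came 60th, at 0.07 and 0.12.

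By level over the 8 classes without shared cells in both libraries (16 points, which share libraries and depth), the genes closest to Nr4a1 were Psenen (r = 0.93), Srgn (0.92), Ciao2b, Tmem179b and Mkrn1, over points that include the step between libraries. Srgn, the proteoglycan core of secretory granules, had r = 0.97 within the WT-labelled library and 0.74 within that labelled dKO. Those closest to Nr4a2 were Gxylt1 (0.94), Id2 (0.92), Serpina3g, Trps1 and Plscr1, and r for Id2, an inhibitor of E proteins in effector lymphocytes, was 0.93 and 0.92 within the libraries. Those closest to Nr4a3 were Gadd45b (0.83), Dtx3, the RNase gene Zc3h12a (0.82), Mta3 and the ERK phosphatase gene Dusp5. Nr4a1 and Nr4a3 had r = 0.93 over the 8 classes of the WT-labelled library, 0.60 over those of the dKO-labelled library and 0.36 over both.

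Levels were also taken within expanded T cell clones. The gates of their cells were not compared between the libraries, and the levels of the members differed between gates. The part of this in the values of the clones was not tested. In the dKO-labelled library, 13 clones of at least 20 cells (828 cells) had Nr4a1 levels with a lowest value of 574, a median of 1157 and a highest of 3159 CPM, and none lacked the gene, the fewest UMIs in a clone being 23. In the WT-labelled library, 10 such clones (387 cells) ranged from 605 through a median of 1125 to 1776 CPM. The medians of the clones lay close together while the other cells with a TRB contig had 682 CPM in the WT-labelled library and 1862 CPM in that labelled dKO. These other cells, here and below, were 2867 and 2956 cells. Some of the 3455 and 4096 cells with a TRB contig were thus in neither set. Nr4a2 was likewise present in all 13 clones, at 270.2 to 1494 CPM with a median of 510.2, against 197 to 454 CPM with a median of 286 in the 10 clones labelled WT. The other cells with a TRB contig had 365 CPM of Nr4a2 in the dKO-labelled library and 174 CPM in that labelled WT. Nr4a3 had medians of 215 and 405 CPM in the clones labelled dKO and WT, while in the other cells with a TRB contig it was at 288 and 280.5 CPM. Clones of 1 library come from the same 2 pooled mice and are not replicates of a genotype.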

How the data were processed

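The authors deposited UMI counts per gene and cell for 2 RNA libraries (Cell Ranger 7.0.1 per the file headers, mm10 per the labels) and tables of receptor contigs with their UMI counts, without normalization. The filter required over 200 genes and a mitochondrial share below 5% (10556 of 10602 labelled WT, 17462 of 17645 labelled dKO), both thresholds taken from the study's methods; the study's filter on genes found in few cells was not applied, and the study kept slightly fewer cells of each library. No doublet caller was run; leaving out mixed cells was an alternative.

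Counts were added up within each class. CPM have exact Poisson intervals, ratios exact conditional binomial intervals, shares Clopper-Pearson intervals, and differences of shares intervals combined from those of both shares (Newcombe). A gate needs a UMI, so deeper cells enter it more easily. The named genes are the members, Egr2, Tnfrsf9, genes of marker and pathway lists, and the 5 genes most like each member by the phi coefficient or by Pearson's r of log2(CPM + 10). The members and lists were chosen with earlier results of these data known. Positions come from GENCODE M21 and sequences from RefSeq, in which all 3 members matched by symbol. B cell, natural killer, CD8 T cell and hepatocyte markers were also summed and stayed at or under 55.6 CPM in every T cell gate. Python 3.11.15, numpy 2.4.6, scipy 1.17.1, pandas 2.3.3, matplotlib 3.10.9 and, for TMM factors alone, edgeR 4.0.16 in R 4.3.3 were used. The interval for a ratio was tested on simulated Poisson counts only. That is the model the interval assumes, so the test does not cover spread between cells or mice.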

Additional observations from a re-analysis of the deposited data

Results flagged for a closer look

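Nr4a3 moved in opposite directions between the libraries in different classes of cells. Its log2 ratio of the library labelled dKO to that labelled WT was 0.50 in the Siglech gate, with an interval above 0, while it was −0.22 in the Foxp3 gate, −0.20 in the Ifng gate, −0.57 in the Il17a gate, −0.81 in the Mki67 gate and −0.35 in the Lyz2 gate, with intervals below 0. The Ifng gate turned to 0.10 with 1 cell per clonotype, and the Lyz2 gate was −0.08 with the Siglech and Lyz2 gates at 1 UMI. The intervals cover counting error only, and with 1 library per genotype the difference between classes was not tested.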

How the results depend on the processing

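With 1 library per genotype, depth limits the counting error only, and Egr2 in the Foxp3 gate was too sparse to describe. No paired analysis was possible because each genotype has 1 library. Nr4a1 and Nr4a2 had log2 ratios above 0 under all 73 alternatives run for each, from 0.13 to 1.68 and from 0.05 to 1.45. Over all cells, the log2 ratios of Nr4a1, Nr4a2 and Nr4a3 were 1.34, 0.99 and −0.04 in cells with a TRB contig only, 1.52, 0.96 and 0.17 with 1 cell per clonotype, 1.28, 1.0 and 0.16 as means of each cell's CPM, and 1.16, 0.98 and −0.03 with the class mix of the library labelled WT. Without the Siglech and Lyz2 gates, an alternative chosen after seeing the data, Nr4a1 and Nr4a2 gave 1.34 and 1.08, and TMM scaling gave 1.23 for Nr4a1. In the Foxp3 gate, Nr4a1 gave 1.05 with 2 UMIs required and 1.31 with 1 cell per clonotype, and Nr4a2 gave 1.10 in cells with a TRB contig and 1.11 with 1 cell per clonotype. Nr4a3 turned from −0.20 to 0.10 in the Ifng gate with 1 cell per clonotype, and stayed below 0 in the Foxp3, Il17a, Mki67 and Lyz2 gates and above 0 in the Siglech gate under every alternative run. The difference in Tnfrsf9 detection with Nr4a1 in the Foxp3 gate of the library labelled dKO was 15.5 points in cells with a TRB contig. The cause of these shifts was not tested.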
